A study of Homo sapiens with 32 samples.

Results

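The genes described here encode the integrin chains and the laminin chains. They were taken by symbol from the protein-coding genes of the count table: every gene named ITGA or ITGB followed by a chain number or letter, and every gene named LAMA, LAMB or LAMC followed by a chain number. This gave 38 of 60728 genes, of which 26 encode integrin chains (18 alpha and 8 beta) and 12 encode laminin chains (5 alpha, 4 beta and 3 gamma). RNA sequencing counts were compared in SK-MEL-147, a human melanoma cell line, and A549, a human lung adenocarcinoma cell line, at day 7 of treatment with doxorubicin, palbociclib or INK128 and in untreated cells. Doxorubicin, a DNA-damaging topoisomerase inhibitor, was given at 100 nM in both lines. Palbociclib, an inhibitor of the cell cycle kinases CDK4 and CDK6, was given at 1 uM in SK-MEL-147 and at 5 uM in A549. INK128, an inhibitor of the kinase mTOR, was given at 100 nM in SK-MEL-147 and at 200 nM in A549 and was renewed at each medium change, whereas doxorubicin and palbociclib were withdrawn after 72 h. For INK128 the series' design text names SK-Mel-103, while the sample labels give SK-MEL-147, and the labels were followed. Each line is an established culture of tumour origin, and each of the 8 groups held 4 libraries.

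Integrins are cell surface receptors in which an alpha and a beta chain are joined, and the pair of chains decides which matrix protein is bound. ITGB1 is the common beta chain for most collagen, laminin and fibronectin receptors, whereas ITGAV joins several beta chains to bind proteins that carry the RGD motif, among them the latent form of TGF-beta. Laminins are secreted trimers of an alpha, a beta and a gamma chain that form the basement membrane under epithelia. Cancer cells that enter lasting growth arrest are known to change both their matrix and the receptors that hold it.

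Counts per library ran from 17929732 to 32407057 in SK-MEL-147 and from 28150560 to 33331334 in A549. In A549 the labels number 2 libraries of each group as replicate 2, and these were summed, so n = 4 in SK-MEL-147 and n = 3 in A549 throughout. In every A549 group, library 2-2 was closer to library 3 than to library 2, with median squared differences of 1.9 to 5.22 times counting noise between 2-2 and 3, and 17.5 to 33 times between 2-2 and 2. The labels do not say that replicates were separate cultures, so p-values measure only the spread between these samples. The A549 libraries numbered 1 stood apart from the others under both withdrawn drugs, and their mitochondrial share of counts was the highest, at 18.3% with doxorubicin and 17.3% with palbociclib, within group ranges of 7.53 to 18.3% and 8.3 to 17.3%. Of 8 melanocyte markers, SOX10 averaged 313 CPM in untreated SK-MEL-147, while 5 or 6 in each SK-MEL-147 group were below 1 CPM, among them the pigment genes TYR, PMEL and MLANA. In A549, SOX10 was at or near 0 in the samples numbered 2 and 3, and those numbered 1 had 7.16 CPM with doxorubicin, 6 with palbociclib and 17 with INK128, against 0.63 untreated. All 8 epithelial markers averaged above 1 CPM in every A549 group, and 4 of them were below 1 CPM in each SK-MEL-147 group. Some markers went the other way between the untreated lines. The epithelial marker CLDN4 averaged 82.3 CPM in SK-MEL-147, against 1.78 in A549. The melanocyte markers MITF and PMEL averaged 12 and 0.252 CPM in SK-MEL-147, against 19.6 and 1.08 in A549. Levels are given as CPM, the counts of a gene relative to the scaled total of its library, with scaling done within each line. A difference is a log2 fold change ± an approximate standard error, the absolute change divided by the square root of the F statistic. The F statistic is that of edgeR's quasi-likelihood test, which gives no standard error itself. For chains near 0 counts the ± is only a rough guide. A difference was called where the Benjamini-Hochberg adjusted p over all genes tested was below 0.05. In bulk RNA, a larger share of cells with a transcript and more of it per cell cannot be told apart.

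Start regions are shown for 4 chains on which the results turn, 2 laminin chains that moved in opposite directions and 2 integrin chains that rose with several drugs. The sequences are RefSeq promoter windows of GRCh38.p14, each 250 bases before to 50 bases after an annotated start, read 5′ to 3′ on the strand of the gene. Capitals mark the AP-1 motif TGANTCA and the GC box GGGCGG or its complement CCGCCC. The LAMA3 window is chr18:23872770-23873069 (plus strand), at a start inside the gene as annotated in GENCODE 29, and the LAMB3 window is chr1:209652376-209652675 (minus strand). ITGA5 is shown at chr12:54419217-54419516 (minus strand) and ITGB8 at chr7:20330650-20330949 (plus strand). The starts used for LAMB3, ITGA5 and ITGB8 also lie inside their genes as annotated in GENCODE 29.
LAMA3: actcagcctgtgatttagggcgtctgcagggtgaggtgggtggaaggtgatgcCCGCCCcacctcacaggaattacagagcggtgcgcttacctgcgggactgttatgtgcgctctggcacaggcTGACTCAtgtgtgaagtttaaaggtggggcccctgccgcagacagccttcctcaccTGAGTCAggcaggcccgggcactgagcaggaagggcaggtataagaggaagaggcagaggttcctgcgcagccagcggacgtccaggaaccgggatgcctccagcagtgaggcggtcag
LAMB3: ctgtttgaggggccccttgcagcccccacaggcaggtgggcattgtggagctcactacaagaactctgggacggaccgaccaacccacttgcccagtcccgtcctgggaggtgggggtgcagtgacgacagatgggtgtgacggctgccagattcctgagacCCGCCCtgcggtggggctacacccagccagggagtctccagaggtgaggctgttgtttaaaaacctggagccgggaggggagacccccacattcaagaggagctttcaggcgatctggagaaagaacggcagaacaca
ITGA5: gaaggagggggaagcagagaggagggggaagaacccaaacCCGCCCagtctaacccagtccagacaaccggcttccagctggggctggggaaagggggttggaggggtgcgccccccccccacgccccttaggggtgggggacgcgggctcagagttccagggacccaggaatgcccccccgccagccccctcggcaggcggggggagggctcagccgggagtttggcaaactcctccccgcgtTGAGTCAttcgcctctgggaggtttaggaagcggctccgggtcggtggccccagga
ITGB8: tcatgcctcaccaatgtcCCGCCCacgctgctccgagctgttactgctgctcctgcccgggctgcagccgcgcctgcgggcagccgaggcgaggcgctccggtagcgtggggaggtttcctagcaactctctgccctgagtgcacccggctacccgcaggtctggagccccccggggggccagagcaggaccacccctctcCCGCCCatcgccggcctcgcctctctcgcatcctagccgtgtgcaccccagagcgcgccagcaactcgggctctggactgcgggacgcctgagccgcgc

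The LAMA3 window held 2 AP-1 motifs and 1 GC box, and the ITGA5 window held 1 of each, with its AP-1 motif ending at the annotated start. LAMB3 had 1 GC box and ITGB8 had 2, and neither window held the AP-1 letters. A promoter entry was matched for 26 of the 38 genes. AP-1 letters on either strand were present in 2 of these 26, LAMA3 and ITGA5, and in 7.73% of all 34796 promoters. A GC box was present in 14 of the 26 and in 44.9% of all promoters. The TEAD motif GGAATG was found in 4 of the 26 (14% of all promoters), the M-box TCATGTG in 2 (2.93%), with the copy in LAMA3 overlapping an AP-1 motif, and the E-box CACGTG (7.2%) and TATAAA (11.6%) in 1 each. The cyclic AMP element TGACGTCA (1.84% of promoters) and the FOXO motif TGTTTAC (3.42%) were found in none of the 26 windows. Both strands were searched, and these matches describe letters only.

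In SK-MEL-147, most tested integrin and laminin chains rose after doxorubicin and palbociclib. With doxorubicin, 17 of 29 tested chains rose and 2 fell, where 30.9% of all genes tested rose and 28.9% fell (59.8% called). With palbociclib, 19 rose and 1 fell, where 29.7% of all genes rose and 28.7% fell (58.4% called). The median log2 fold change of the tested chains was 1.17 with doxorubicin and 1.32 with palbociclib, against 0.02 and -0.00 for all genes. In either line, the count filter could keep a gene through the groups where it was high alone, as with ITGB4 in SK-MEL-147. A rise of such a chain is partly built into its being tested, and it adds to these counts and medians. The same filter was applied to all genes. INK128 raised 9 chains and lowered 1, where 29.8% of all genes rose and 28.9% fell (58.7% called), with a median of 0.29 against 0.03. Together the 38 genes took 0.516 to 1.05% of counts in doxorubicin libraries, 0.682 to 0.896% in palbociclib libraries and 0.372 to 0.469% in INK128 libraries, against 0.277 to 0.364% in untreated libraries. In the same libraries the mitochondrial share of counts was 3.5 to 5.61% with doxorubicin, 4.8 to 5.89% with palbociclib and 3.19 to 5.06% with INK128, against 2.38 to 3.24% untreated, and its part in these counts was not tested. The 3 comparisons use the same untreated samples.

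In SK-MEL-147, 65.5% of tested chains were called with doxorubicin and 69% with palbociclib, beside 59.8% and 58.4% of all genes (n = 4). In A549 these shares were 47.1% and 41.2%, beside 43.3% of all genes for each drug (n = 3). The counts of called chains thus differed between the lines much as those of all genes did. The chain medians with these 2 drugs were smaller in A549, where the calls were as follows. Doxorubicin raised 13 of 34 tested chains and lowered 3, where 22.4% of all genes rose and 20.9% fell (43.3% called). Palbociclib raised 11 and lowered 3, where 22.2% of all genes rose and 21.1% fell (43.3% called). INK128 raised 10 and lowered 2, where 20.5% rose and 19.7% fell (40.2% called). The medians of the tested chains were 0.47, 0.38 and 0.41 in that order of drugs, and those of all genes were 0.00, 0.02 and 0.01. With the A549 libraries numbered 1 left out of all groups, 22, 24 and 23 chains were called in place of 16, 14 and 12, and 54%, 54.1% and 53.7% of all genes.

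Across the 6 comparisons of a drug with untreated cells, ITGB8 and LAMB2 were called higher in all 6. A further 5 chains, ITGA2, ITGA5, ITGA7, ITGB3 and LAMA4, were higher in at least 4. ITGA2B, ITGA6, ITGAE and LAMA3 were each called lower in at least 2, and LAMA3 and LAMB3 were called in both directions. LAMA2 was tested in both lines and never called. ITGAL, ITGB2 and ITGB7 were tested in A549 alone, being too low in SK-MEL-147, and were never called. ITGA8, ITGA9 and ITGAD were too low to test in either line. From 20.5% to 30.9% of all genes rose in each of the 6 comparisons, and comparisons within a line share their untreated samples. How many of all genes recur as often was not counted, so these counts do not show whether the chains recur more than other genes.

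**Figure D1:**
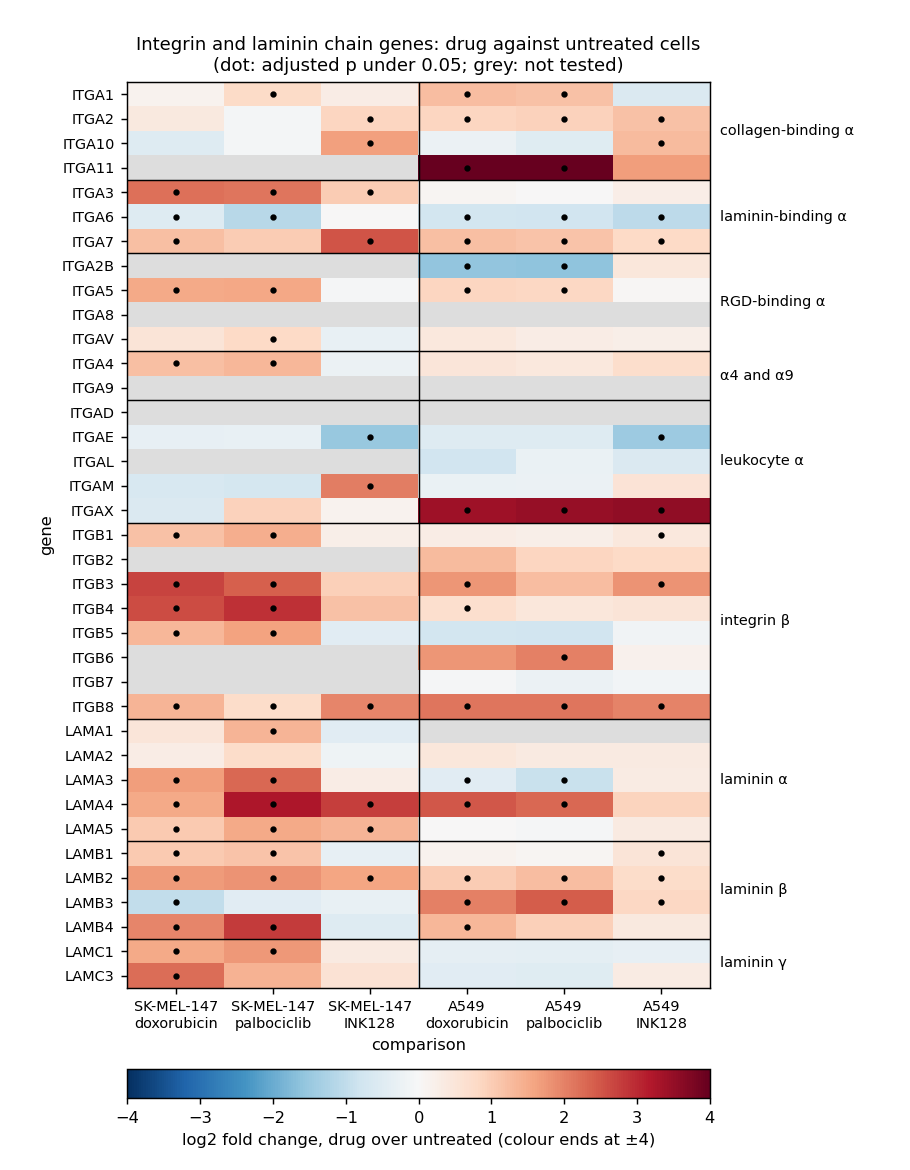
Log2 fold changes of integrin and laminin chains against untreated cells (rows: genes grouped by class; columns: the 3 drugs in SK-MEL-147, then in A549), as colours that end at ±4, with a dot for a called change and grey where a gene was not tested. ITGB8 and LAMB2 carry a dot on a higher value in all 6 columns, and LAMA3 and LAMB3 have opposite signs in the 2 lines for doxorubicin.

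Among the laminin receptors, ITGA3, which pairs with ITGB1, rose with every drug in SK-MEL-147. ITGA3 had 2428, 3766, 1594 and 2167 CPM in the doxorubicin samples, 2392, 2551, 2064 and 2649 in the palbociclib samples and 1082, 1148, 1030 and 1102 in the INK128 samples, against 575, 510.7, 562 and 534 in untreated SK-MEL-147. Every treated sample lay above every untreated one, and the doxorubicin and palbociclib samples also lay above all INK128 samples. The log2 fold changes were 2.19 ± 0.20 (adjusted p = 8.07e-08) with doxorubicin, 2.15 ± 0.19 (adjusted p = 1.26e-07) with palbociclib and 1.00 ± 0.19 (adjusted p = 0.000284) with INK128. In A549, ITGA3 averaged 534 ± 18.7, 513 ± 74.2 and 618 ± 142 CPM with the 3 drugs, in the same order, against 508 ± 89.8 in untreated cells (SD, n = 3), and was not called with any of them.

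ITGA6, the alpha chain that joins ITGB4 in hemidesmosomes or ITGB1 elsewhere, fell. In A549 it had 70.1, 87.0 and 97.2 CPM in the doxorubicin samples, 55.2, 103 and 94.9 in the palbociclib samples and 63.6, 68.3 and 75.3 in the INK128 samples, against 134, 144 and 151 in untreated A549. Every treated A549 sample lay below every untreated one, with log2 fold changes of -0.75 ± 0.21 (adjusted p = 0.0116), -0.76 ± 0.21 (adjusted p = 0.0111) and -1.05 ± 0.21 (adjusted p = 0.00237) for doxorubicin, palbociclib and INK128. In SK-MEL-147 it had 147, 235, 171 and 158 CPM in the doxorubicin samples, 124, 139, 88.0 and 125 in the palbociclib samples and 153, 264, 297 and 321 in the INK128 samples, against 248, 229, 249 and 293 in untreated SK-MEL-147. The palbociclib samples were all below the untreated ones, while 1 doxorubicin sample, at 235, lay above the lowest untreated sample. ITGA6 was called lower with doxorubicin, at -0.52 ± 0.20 (adjusted p = 0.0364), and palbociclib, at -1.10 ± 0.21 (adjusted p = 0.000217), and was not called with INK128, at 0.02 ± 0.20 (adjusted p = 0.932). The doxorubicin call was lost in 7 of 12 settings.

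ITGB4, the hemidesmosome beta chain, sat at far different levels in the 2 lines. In SK-MEL-147 it had 0.776, 0.671, 0.603 and 0.976 CPM in the doxorubicin samples, 1.26, 0.610, 1.08 and 0.751 in the palbociclib samples and 0.539, 0.199, 0.188 and 0.181 in the INK128 samples, against 0.119, 0, 0.130 and 0.223 in untreated SK-MEL-147. Although every doxorubicin and palbociclib sample exceeded every untreated one, nearly all were near or below 1 CPM, and the changes were 2.61 ± 0.51 (adjusted p = 0.000328) and 2.91 ± 0.51 (adjusted p = 0.00012). In A549, ITGB4 had 269, 153 and 204 CPM with doxorubicin, 199, 137 and 205 with palbociclib and 143, 185 and 236 with INK128, against 159.9, 111 and 123 in untreated cells. Each drug group overlapped the untreated samples. It was called with doxorubicin, at 0.67 ± 0.25 (adjusted p = 0.0478), and this call was lost in 7 of 14 alternative settings, with adjusted p up to 0.2. The INK128 change of 0.52 ± 0.25 (adjusted p = 0.118) was called with replicate as a block (0.54, adjusted p = 0.0417). ITGA7, a laminin receptor known best from muscle, stayed at 3 CPM or less in every sample and was called higher in 5 of the 6 comparisons, with its largest value in SK-MEL-147 with INK128, at 2.50 ± 0.41 (adjusted p = 8.01e-05). Its call was lost in 3 of 12 settings in SK-MEL-147 with doxorubicin and in 6 of 14 in A549 with INK128.

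ITGB1, the shared beta chain, had the highest level per length of exon among the integrin chains in every group. It had 2857, 3364, 1742 and 2581 CPM in the doxorubicin samples, 2866, 3287, 2997 and 3580 in the palbociclib samples and 1090, 1479, 1440 and 1481 in the INK128 samples, against 1261, 1241, 985 and 1213 in untreated SK-MEL-147. All doxorubicin and palbociclib samples lay above all untreated ones, and the INK128 samples overlapped them. The changes were 1.17 ± 0.18 (adjusted p = 2.41e-05) and 1.44 ± 0.18 (adjusted p = 3.14e-06) for the first 2 drugs and 0.22 ± 0.17 (adjusted p = 0.278) for INK128. Levels of ITGB1 in A549 were 2678, 2558 and 2716 CPM in the doxorubicin samples, 2223, 2692 and 2663 in the palbociclib samples and 2646, 2870 and 3184 in the INK128 samples, against 2249, 2019 and 2202 in untreated A549. Doxorubicin and INK128 samples lay above the untreated ones, and the palbociclib samples overlapped them. The INK128 change was 0.43 ± 0.12 (adjusted p = 0.0176), a call lost in 4 of 14 settings with adjusted p up to 0.17, and the doxorubicin change 0.30 ± 0.12 (adjusted p = 0.072), which was called with replicate as a block (0.30, adjusted p = 0.0444). With palbociclib ITGB1 was not called in A549, at 0.23 ± 0.12 (adjusted p = 0.159).

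**Figure D2:**
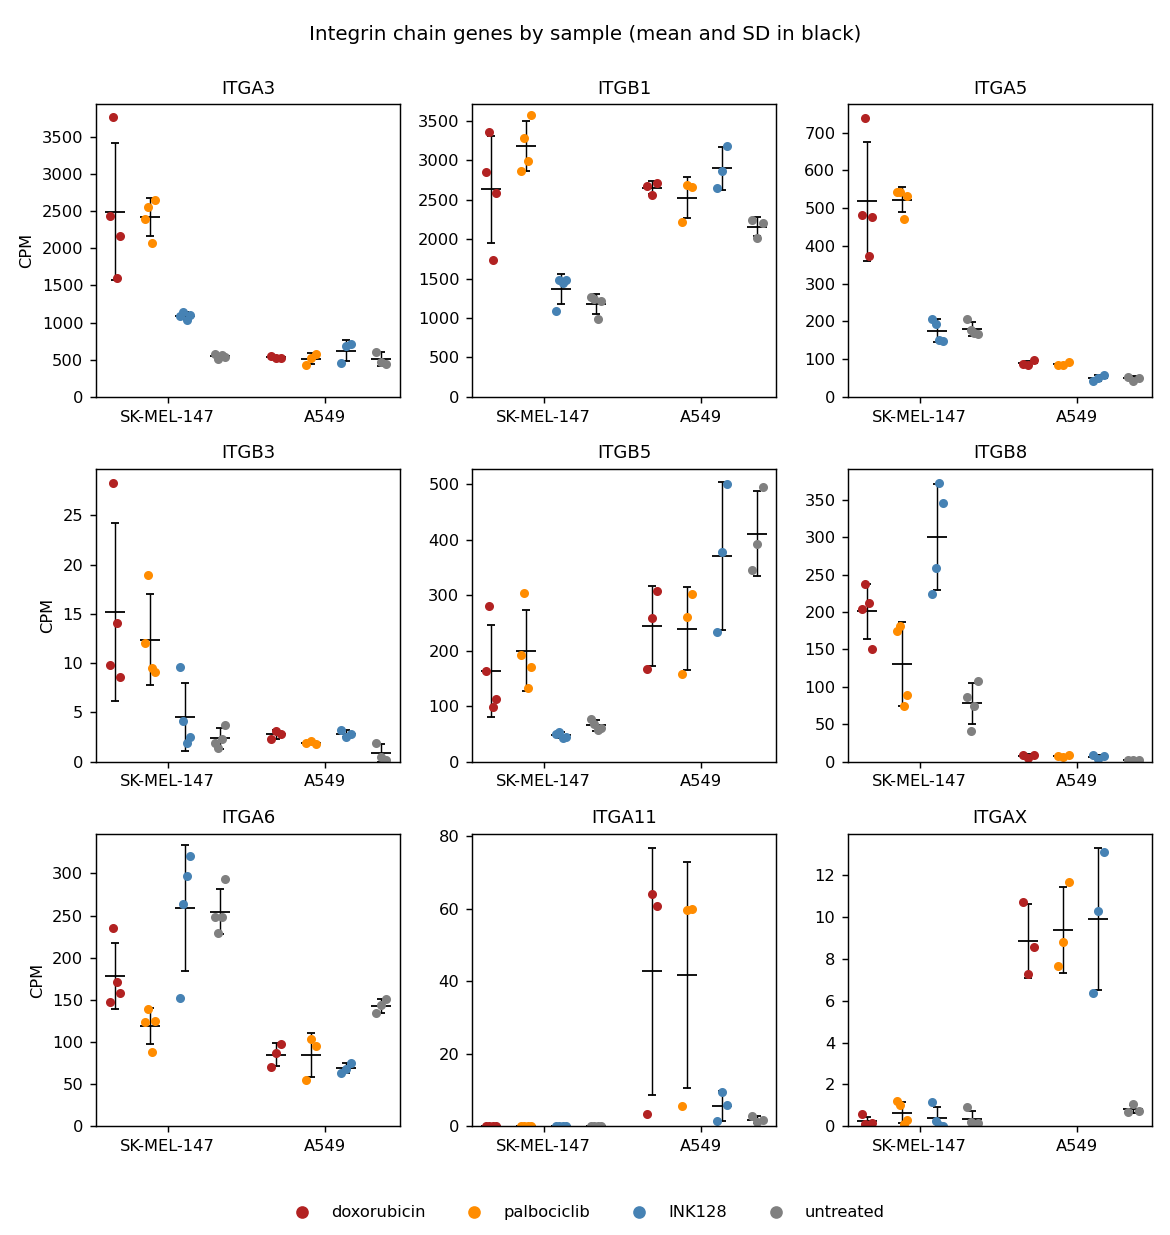
CPM of integrin chains in every sample (linear axis from 0), by line and drug, with SK-MEL-147 left of A549 and untreated cells last in each line; points are samples and black marks the mean ± SD. ITGA3 and ITGB1 in SK-MEL-147 stand above the untreated samples with doxorubicin and palbociclib, and ITGA11 in A549 has a single low sample with each of these drugs.

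Of the receptors for fibronectin and other RGD proteins, ITGA5, the fibronectin receptor alpha chain, rose with doxorubicin and palbociclib in both lines. It had 481, 739.7, 372 and 477 CPM in the doxorubicin samples, 542, 542, 472 and 532 in the palbociclib samples and 207, 194, 149.8 and 149 in the INK128 samples, against 207, 176, 168 and 167 in untreated SK-MEL-147. A549 cells had 87.9, 83.8 and 96.4 CPM in the doxorubicin samples, 85.3, 84.8 and 91.2 in the palbociclib samples and 43.3, 50.7 and 58.2 in the INK128 samples, against 53.5, 42.7 and 50.4 in untreated A549. Doxorubicin and palbociclib samples lay above all untreated samples in both lines, and INK128 samples overlapped untreated ones in both. In SK-MEL-147 the changes were 1.53 ± 0.18 (adjusted p = 1.31e-06) with doxorubicin, 1.54 ± 0.18 (adjusted p = 1.41e-06) with palbociclib and -0.04 ± 0.17 (adjusted p = 0.863) with INK128. In A549 they were 0.87 ± 0.13 (adjusted p = 0.0003), 0.83 ± 0.13 (adjusted p = 0.000389) and 0.05 ± 0.13 (adjusted p = 0.765). Its start window, printed above, is 1 of the 2 that held AP-1 letters.

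ITGB8, a partner of ITGAV that binds latent TGF-beta, was called higher with every drug in both lines. In SK-MEL-147 it had 205, 238, 212 and 150.3 CPM in the doxorubicin samples, 175, 182, 74.7 and 88.9 in the palbociclib samples and 224, 259, 373 and 347 in the INK128 samples, against 87.0, 41.4, 74.4 and 108 in untreated SK-MEL-147. The doxorubicin and INK128 samples were all above the untreated ones, whereas 2 of 4 palbociclib samples fell within the untreated range. The changes were 1.37 ± 0.30 (adjusted p = 0.000943), 0.74 ± 0.30 (adjusted p = 0.0431) and 1.95 ± 0.31 (adjusted p = 5.69e-05) in the order doxorubicin, palbociclib and INK128, and the palbociclib call was lost in 7 of 12 alternative settings, with adjusted p up to 0.135. In A549, at a much lower level, ITGB8 had 8.56, 5.32 and 8.73 CPM in the doxorubicin samples, 7.92, 5.75 and 8.66 in the palbociclib samples and 8.87, 4.01 and 7.15 in the INK128 samples, against 1.35, 1.71 and 2.01 in untreated A549. No treated A549 sample overlapped an untreated one, and the changes were 2.15 ± 0.32 (adjusted p = 0.000269), 2.13 ± 0.32 (adjusted p = 0.00027) and 1.97 ± 0.32 (adjusted p = 0.000757). Without the A549 libraries numbered 1, which also held SOX10 counts, they were 1.94, 1.99 and 1.60, and each was called.

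ITGB3, the beta chain of the vitronectin receptor, had 9.77, 28.3, 14.0 and 8.58 CPM in the doxorubicin samples, 12.1, 18.9, 9.48 and 9.04 in the palbociclib samples and 9.57, 4.11, 1.92 and 2.50 in the INK128 samples, against 1.91, 1.35, 2.33 and 3.76 in untreated SK-MEL-147. The doxorubicin and palbociclib samples all exceeded the untreated ones, with changes of 2.69 ± 0.50 (adjusted p = 0.000187) and 2.39 ± 0.50 (adjusted p = 0.000545), and INK128 was not called, at 0.95 ± 0.49 (adjusted p = 0.104). In A549, where ITGB3 stayed under 4 CPM, the untreated samples were 1.86, 0.431 and 0.167 CPM and the first of these stood above the others. The A549 changes were 1.78 ± 0.57 (adjusted p = 0.0247) with doxorubicin, 1.24 ± 0.57 (adjusted p = 0.0971) with palbociclib and 1.81 ± 0.57 (adjusted p = 0.0248) with INK128, and without untreated replicate 1 the doxorubicin and INK128 values were 3.10 and 3.12. Each of these 2 calls was lost in 4 of 14 settings, with adjusted p up to 0.105 and 0.108. The palbociclib value was called with replicate as a block, at 1.39 (adjusted p = 0.0389), and without untreated replicate 1, at 2.57 (adjusted p = 0.00031).

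ITGB5, another ITGAV partner, moved up in the melanoma line. It had 164, 280.5, 97.8 and 113 CPM in the doxorubicin samples, 191, 304, 133 and 171 in the palbociclib samples and 50.2, 53.3, 42.6 and 44.5 in the INK128 samples, against 77.4, 68.5, 56.2 and 59.6 in untreated SK-MEL-147. Doxorubicin and palbociclib samples were all above the untreated samples, and all 4 INK128 samples were below them. ITGB5 rose with doxorubicin, at 1.32 ± 0.28 (adjusted p = 0.000684), and palbociclib, at 1.61 ± 0.28 (adjusted p = 0.000131). INK128 gave -0.46 ± 0.28 (adjusted p = 0.17), which, among 12 alternative settings, was called with replicate as a block alone (adjusted p = 0.0302). Its A549 values were 166, 258 and 308 CPM in the doxorubicin samples, 158, 259.8 and 302 in the palbociclib samples and 233, 378 and 501 in the INK128 samples, against 346, 392 and 496 in untreated A549. The doxorubicin and palbociclib samples lay below every untreated A549 sample. Their changes of -0.75 ± 0.32 (adjusted p = 0.0763) and -0.78 ± 0.32 (adjusted p = 0.0679) were not called, and with replicate as a block they were -0.79 (adjusted p = 0.00024) and -0.82 (adjusted p = 0.000184).

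ITGAV itself, the common alpha chain, was called in a single drug comparison, palbociclib in SK-MEL-147, at 0.81 ± 0.24 (adjusted p = 0.00867), where it had 165, 199, 251 and 314 CPM, against 154, 119.7, 115 and 143 in untreated cells. The palbociclib samples did not overlap the untreated ones. With doxorubicin it was not called, at 0.51 ± 0.24 (adjusted p = 0.0771), and it was not called in A549 with any drug. ITGB6, the epithelial activator of latent TGF-beta, was too low to test in SK-MEL-147. In A549 it had 6.07, 17.6 and 8.56 CPM in the doxorubicin samples, 7.40, 22.0 and 8.57 in the palbociclib samples and 4.68, 4.91 and 0.906 in the INK128 samples, against 5.80, 2.54 and 1.10 in untreated A549. Doxorubicin and palbociclib samples all lay above the untreated ones, the lowest doxorubicin sample only just, and INK128 samples overlapped them. Palbociclib gave 2.02 ± 0.71 (adjusted p = 0.038), a call lost in 5 of 14 settings, and doxorubicin gave 1.78 ± 0.71 (adjusted p = 0.0604), called with replicate as a block at 1.85 (adjusted p = 0.0161). ITGB6 shares 966 exon bases on its own strand with the transcript AC092153.1. ITGA2B, the platelet fibrinogen receptor chain, was near 1 CPM in untreated A549 and fell with doxorubicin and palbociclib, at -1.59 ± 0.40 (adjusted p = 0.00805) and -1.62 ± 0.40 (adjusted p = 0.00704).

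All 4 collagen receptor alpha chains were tested in A549. There 3 rose with doxorubicin, 3 with palbociclib and 2 with INK128, where 22.4%, 22.2% and 20.5% of all genes rose. In SK-MEL-147 3 were tested, of which 0 rose with doxorubicin, 1 with palbociclib and 2 with INK128. Of all genes in that line, 30.9%, 29.7% and 29.8% rose. ITGA11, a fibrillar collagen receptor known from fibroblasts, had 3.43, 64.0 and 60.9 CPM in the doxorubicin samples, 5.66, 59.5 and 59.8 in the palbociclib samples and 1.34, 9.40 and 5.89 in the INK128 samples, against 2.77, 1.05 and 1.64 in untreated A549. The samples numbered 2 and 3 rose to between 59.5 and 64.0 CPM with doxorubicin and palbociclib, and the sample numbered 1 stayed at 3.43 CPM with doxorubicin and 5.66 CPM with palbociclib. Even so, no doxorubicin or palbociclib sample overlapped an untreated one. The changes were 4.60 ± 1.16 (adjusted p = 0.0075) and 4.56 ± 1.16 (adjusted p = 0.00777), and INK128 gave 1.67 ± 1.09 (adjusted p = 0.24). Across 14 alternative settings the doxorubicin value ran from 3.90 to 5.65 and stayed called in each. The low samples are the ones with the highest mitochondrial shares (18.3% and 17.3%), whose part in the result was not tested.

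ITGA1, a receptor for basement membrane collagen, had 11.9, 21.2 and 14.6 CPM with doxorubicin and 13.4, 19.9 and 12.8 with palbociclib, against 7.63, 6.08 and 6.73 in untreated A549. Both sets lay above the untreated samples, and the INK128 samples, at 4.82, 4.59 and 4.27, lay below them. The changes were 1.23 ± 0.23 (adjusted p = 0.0011), 1.18 ± 0.23 (adjusted p = 0.00144) and, for INK128, -0.58 ± 0.23 (adjusted p = 0.0635), called with replicate as a block at -0.59 (adjusted p = 0.0314), and the doxorubicin value was 0.78 when replicate 2 was taken from library 2-2 alone. ITGA1 shares 475 exon bases on the same strand with PELO, which had 37094 counts in all libraries. ITGA2, a collagen and laminin receptor, rose with every drug in A549, at 0.85 ± 0.18 (adjusted p = 0.00326), 0.92 ± 0.18 (adjusted p = 0.00194) and 1.17 ± 0.19 (adjusted p = 0.000704) for doxorubicin, palbociclib and INK128, from samples of 131, 96.9 and 115 CPM, 134, 98.5 and 129 CPM and 122, 134 and 173 CPM, against 74.4, 53.4 and 63.0 CPM in untreated cells. No treated sample overlapped an untreated one, and the doxorubicin and palbociclib calls were each lost in 1 of 14 settings, with library 2 taken alone. In SK-MEL-147, ITGA2 was called with INK128, at 0.87 ± 0.29 (adjusted p = 0.0181), where it had 101, 117, 119 and 135 CPM against 90.4, 45.8, 56.3 and 66.4 in untreated cells. That call was lost without untreated replicate 2, at 0.74 (adjusted p = 0.0597), and without untreated replicate 3, at 0.80 (adjusted p = 0.0511). ITGA10, a cartilage collagen receptor, had 7.38, 6.22, 5.84 and 5.73 CPM with INK128 in SK-MEL-147, against 2.60, 1.74, 2.07 and 1.69 in untreated cells, all above, with a change of 1.63 ± 0.25 (adjusted p = 4.08e-05).

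ITGA4, which binds VCAM1 and fibronectin, had 407, 476, 240.3 and 248 CPM in the doxorubicin samples, 482, 470.0, 262 and 274 in the palbociclib samples and 147, 144, 99.7 and 115 in the INK128 samples, against 134, 154, 132 and 176 in untreated SK-MEL-147. Its doxorubicin and palbociclib samples lay above every untreated sample, with changes of 1.20 ± 0.24 (adjusted p = 0.000427) and 1.32 ± 0.24 (adjusted p = 0.000199), and INK128 was not called, at -0.24 ± 0.24 (adjusted p = 0.412). In A549 ITGA4 stayed between 1.11 and 7.46 CPM and was not called, though INK128 was with replicate as a block, at 0.76 (adjusted p = 0.037).

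The alpha chains known from leukocytes were low in both lines. ITGAX, which joins ITGB2 in a complement receptor of myeloid cells, nevertheless rose in A549 with each drug. It had 10.7, 7.25 and 8.56 CPM in the doxorubicin samples, 7.64, 8.82 and 11.7 in the palbociclib samples and 6.36, 10.3 and 13.1 in the INK128 samples, against 0.662, 1.06 and 0.736 in untreated A549. Every treated sample was above all of the untreated ones, and the changes were 3.39 ± 0.31 (adjusted p = 1.3e-05), 3.48 ± 0.31 (adjusted p = 8.88e-06) and 3.56 ± 0.31 (adjusted p = 4.51e-05). Of 12 leukocyte markers, 10 or 11 were below 1 CPM in each A549 group, CD3E and MS4A1 were at 0 in all of them, and PTPRC was at most 0.209 CPM. The summed level of the list ranged from 9.815 to 35.9 CPM with doxorubicin, 8.29 to 22.2 with palbociclib and 9.15 to 12 with INK128, against 7.00 to 10.1 in untreated cells, most of it CD14. ITGB2 had 7.20, 1.60 and 3.44 CPM with doxorubicin, 5.11, 1.76 and 2.36 with palbociclib and 3.51, 2.43 and 2.98 with INK128, against 2.05, 1.48 and 1.57 in untreated A549, and was not called. With replicate as a block it was called with doxorubicin, at 1.04 (adjusted p = 0.0132), and INK128, at 0.80 (adjusted p = 0.043). ITGAE, which joins ITGB7 to bind E-cadherin, fell with INK128 in both lines. It had 5.10, 5.23, 6.55 and 6.03 CPM with INK128, against 13.7, 16.4, 17.9 and 17.3 in untreated SK-MEL-147, and 10.7, 7.31 and 6.34 CPM with INK128, against 19.4, 24.5 and 22.7 in untreated A549. Neither line had an INK128 sample within the untreated range, and the changes were -1.51 ± 0.20 (adjusted p = 9.09e-06) and -1.46 ± 0.21 (adjusted p = 0.000443). Doxorubicin and palbociclib gave -0.52 ± 0.20 (adjusted p = 0.0584) and -0.52 ± 0.20 (adjusted p = 0.0591) in A549, called with replicate as a block (adjusted p = 0.0246 for each). ITGAE overlaps HASPIN, a mitotic kinase gene on the opposite strand, over 427 exon bases, and the strand setting of the counting is not given in the sources used here.

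Among the laminin chains, LAMA3 and LAMB3 belong to a laminin that anchors epithelia through ITGA6 and ITGB4. LAMB3 moved in opposite directions in the 2 lines with doxorubicin. In SK-MEL-147 it had 90.0, 70.1, 27.2 and 58.3 CPM in the doxorubicin samples, 116, 112, 64.5 and 60.3 in the palbociclib samples and 104, 98.2, 76.8 and 112 in the INK128 samples, against 123, 128, 126 and 107 in untreated SK-MEL-147. All doxorubicin samples lay below all untreated ones, and the palbociclib and INK128 groups overlapped them. In A549 it had 70.3, 71.5 and 107 CPM in the doxorubicin samples, 94.7, 101 and 136 in the palbociclib samples and 21.8, 36.3 and 51.4 in the INK128 samples, against 17.8, 22.5 and 21.1 in untreated A549. All A549 doxorubicin and palbociclib samples lay above the untreated ones, and 1 INK128 sample fell within the untreated range. The SK-MEL-147 changes were -0.98 ± 0.28 (adjusted p = 0.00595), -0.46 ± 0.28 (adjusted p = 0.163) and -0.31 ± 0.28 (adjusted p = 0.343) for doxorubicin, palbociclib and INK128. In A549 they were 2.02 ± 0.29 (adjusted p = 0.000214), 2.43 ± 0.29 (adjusted p = 6.26e-05) and 0.83 ± 0.28 (adjusted p = 0.0339), of which the INK128 call was lost in 7 of 14 settings and was 0.51 without INK128 replicate 3.

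LAMA3, the other chain with AP-1 letters in its window, had the opposite signs to LAMB3 with doxorubicin. In A549 it had 52.2, 44.9 and 48.6 CPM in the doxorubicin samples, 31.0, 36.8 and 39.1 in the palbociclib samples and 81.1, 74.2 and 97.8 in the INK128 samples, against 82.0, 54.2 and 63.6 in untreated A549. The doxorubicin and palbociclib samples lay below every untreated sample, and the INK128 samples overlapped the untreated ones. The changes were -0.46 ± 0.16 (adjusted p = 0.0429) with doxorubicin, -0.90 ± 0.17 (adjusted p = 0.00115) with palbociclib and 0.34 ± 0.16 (adjusted p = 0.12) with INK128. The doxorubicin call was lost in 8 of 14 settings, with values of -0.58 to -0.27 and adjusted p up to 0.279. In SK-MEL-147 LAMA3 stayed under 2 CPM, with 0.776, 1.24, 0.435 and 1.25 CPM in the doxorubicin samples, 1.18, 0.831, 1.81 and 1.81 in the palbociclib samples and 0.412, 0.331, 0.188 and 0.452 in the INK128 samples, against 0.149, 0.356, 0.421 and 0.223 in untreated SK-MEL-147. Doxorubicin and palbociclib samples were all above the untreated ones, at changes of 1.68 ± 0.41 (adjusted p = 0.00205) and 2.31 ± 0.41 (adjusted p = 0.000125), at levels far under those of A549.

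In untreated SK-MEL-147 LAMB3 and LAMA3 were unequal per length, with 25.9 CPM per kb of exon for LAMB3, against 0.0196 for LAMA3.

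The widely expressed chains LAMB1, LAMB2 and LAMC1 rose with doxorubicin and palbociclib in SK-MEL-147. LAMC1, the common gamma chain, had 228, 258, 152 and 262 CPM in the doxorubicin samples, 213, 257, 250.1 and 342 in the palbociclib samples and 74.9, 106, 117 and 114 in the INK128 samples, against 96.4, 61.0, 75.6 and 85.5 in untreated SK-MEL-147. LAMB1 had 285, 322, 192 and 289 CPM in the doxorubicin samples, 296, 297, 249 and 305 in the palbociclib samples and 102, 94.97, 107 and 116 in the INK128 samples, against 155, 119.7, 123 and 127 in untreated SK-MEL-147. For both genes every doxorubicin and palbociclib sample lay above every untreated one. LAMC1 changed by 1.50 ± 0.20 (adjusted p = 6.39e-06) with doxorubicin and 1.74 ± 0.20 (adjusted p = 1.58e-06) with palbociclib, and was not called with INK128, at 0.37 ± 0.20 (adjusted p = 0.111). LAMB1 changed by 1.05 ± 0.14 (adjusted p = 6.7e-06) and 1.13 ± 0.14 (adjusted p = 3.69e-06), and INK128, whose samples were all below the untreated ones, gave -0.32 ± 0.14 (adjusted p = 0.0579), which was called with replicate as a block (adjusted p = 0.0379). In A549, LAMB1 rose with INK128, at 0.53 ± 0.12 (adjusted p = 0.00625), with 429, 473 and 498 CPM, against 357, 309 and 306 in untreated cells. LAMC1 was not called there, at -0.37 ± 0.24 (adjusted p = 0.231), -0.38 ± 0.24 (adjusted p = 0.222) and -0.34 ± 0.24 (adjusted p = 0.275) for doxorubicin, palbociclib and INK128.

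LAMB2, the beta chain of mature vascular and muscle basement membranes, was called higher in all 6 comparisons. In SK-MEL-147 it had 368, 463, 157 and 316 CPM in the doxorubicin samples, 456, 411, 240.1 and 312 in the palbociclib samples and 307, 356, 248 and 292 in the INK128 samples, against 172, 85.6, 72.8 and 74.6 in untreated SK-MEL-147. Palbociclib and INK128 samples were all above the untreated samples, and 1 doxorubicin sample, at 157, was below the highest untreated sample. Levels in A549 were 132, 119.7 and 154 CPM in the doxorubicin samples, 135, 147 and 190.1 in the palbociclib samples and 76.3, 114 and 144 in the INK128 samples, against 71.5, 56.8 and 75.2 in untreated A549. All treated A549 samples were above all untreated ones, the lowest INK128 sample only just. The changes were 1.69 ± 0.32 (adjusted p = 0.000209), 1.81 ± 0.32 (adjusted p = 0.000119) and 1.57 ± 0.31 (adjusted p = 0.000474) in SK-MEL-147 and 1.00 ± 0.22 (adjusted p = 0.00372), 1.22 ± 0.22 (adjusted p = 0.0011) and 0.72 ± 0.22 (adjusted p = 0.0232) in A549, in the order doxorubicin, palbociclib and INK128. The A549 INK128 call was lost in 4 of 14 settings, 3 of which left out an untreated or INK128 replicate, and was 0.49 without INK128 replicate 3.

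Of the other laminin alpha chains, LAMA5, found in most epithelial basement membranes, was abundant in A549 and near 1 CPM in SK-MEL-147. It had 1.27, 1.73, 0.971 and 1.25 CPM in the doxorubicin samples, 1.08, 1.88, 2.12 and 2.16 in the palbociclib samples and 1.65, 1.56, 1.54 and 1.72 in the INK128 samples, against 0.657, 0.747, 0.486 and 0.605 in untreated SK-MEL-147. All treated SK-MEL-147 samples lay above the untreated ones, with changes of 1.06 ± 0.25 (adjusted p = 0.00172), 1.53 ± 0.25 (adjusted p = 6.47e-05) and 1.37 ± 0.25 (adjusted p = 0.000217). In A549, LAMA5 averaged 368 ± 19.2 CPM with doxorubicin, 349.9 ± 54.4 with palbociclib and 471 ± 137 with INK128, against 363 ± 30.5 in untreated cells (SD, n = 3), and was not called. LAMA5 shares 244 exon bases with ADRM1 on the opposite strand. LAMA4, a chain of vessel and fat basement membranes, had 1.66, 1.41, 2.88 and 1.65 CPM in the doxorubicin samples, 9.51, 11.2, 2.66 and 2.00 in the palbociclib samples and 1.87, 2.32, 7.42 and 6.45 in the INK128 samples, against 0.985, 0.498, 0.389 and 0.764 in untreated SK-MEL-147. No treated sample overlapped an untreated one, though replicates of palbociclib differed among themselves, 2 at 9.51 and 11.2 and 2 at 2.66 and 2.00. LAMA4 changed by 1.51 ± 0.59 (adjusted p = 0.0363), 3.24 ± 0.59 (adjusted p = 0.000185) and 2.76 ± 0.59 (adjusted p = 0.000803) in SK-MEL-147, where the doxorubicin call was lost in 5 of 12 settings, and in A549 by 2.48 ± 0.41 (adjusted p = 0.000596) with doxorubicin and 2.30 ± 0.41 (adjusted p = 0.000949) with palbociclib, at 2.19 to 4.40 CPM, against 1.01, 0.369 and 0.502 CPM in untreated cells.

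The remaining chains were low. LAMB4 stayed under 1 CPM in every sample and was called higher in SK-MEL-147 with doxorubicin, at 1.94 ± 0.62 (adjusted p = 0.0122), and palbociclib, at 2.80 ± 0.58 (adjusted p = 0.000534), and in A549 with doxorubicin, at 1.34 ± 0.36 (adjusted p = 0.0108). The doxorubicin calls were lost in 1 of 12 settings in SK-MEL-147, without doxorubicin replicate 2, and in 2 of 14 in A549. LAMC3 was called with doxorubicin in SK-MEL-147, at 2.24 ± 0.69 (adjusted p = 0.00983), where its samples were 1.76, 0.813, 0.201 and 0.639 CPM, against 0.358, 0.249, 0.0648 and 0.0318 in untreated cells, which overlapped. Without doxorubicin replicate 1 it was 1.62 and not called. LAMA1 was called with palbociclib in SK-MEL-147, at 1.35 ± 0.32 (adjusted p = 0.00175), and ITGAM with INK128, at 2.05 ± 0.70 (adjusted p = 0.0195), LAMA1 at no more than 1.56 CPM and ITGAM under 1 CPM. ITGA1 was also called with palbociclib in SK-MEL-147, at 0.75 ± 0.29 (adjusted p = 0.0373), and ITGA10 with INK128 in A549, at 1.26 ± 0.39 (adjusted p = 0.0236). These calls of ITGAM, ITGA1 and ITGA10 were lost in 4 of 12, 5 of 12 and 3 of 14 settings.

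**Figure D3:**
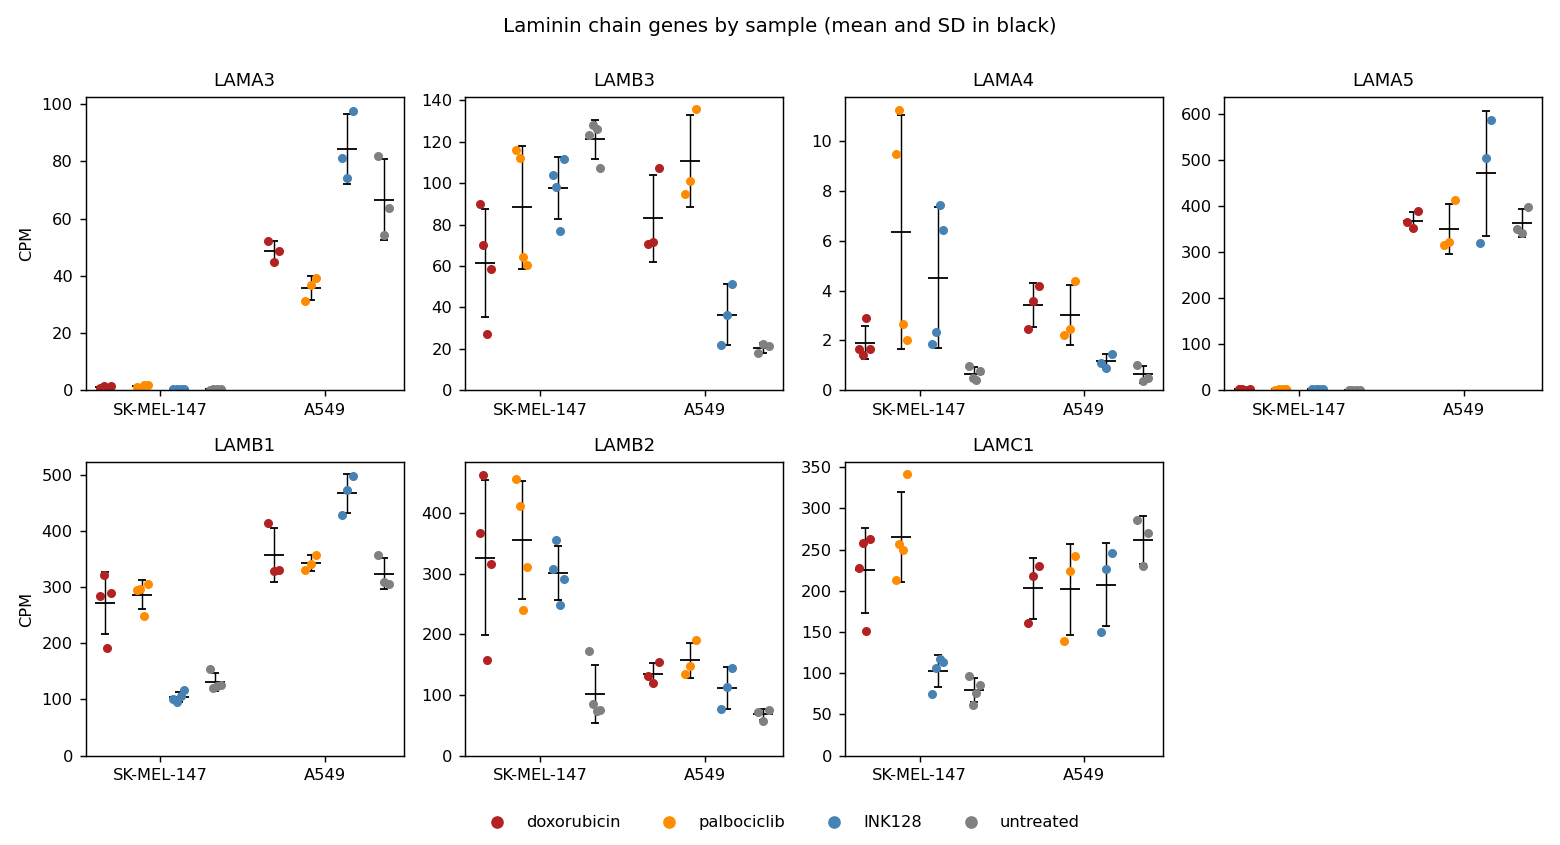
CPM of laminin chains in every sample (linear axis from 0), by line and drug, with SK-MEL-147 left of A549 and untreated cells last in each line; points are samples and black marks the mean ± SD. LAMB3 stands above the untreated samples in A549 and below them in SK-MEL-147 with doxorubicin, and LAMB2 is above the untreated samples in every A549 drug group.

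Palbociclib and doxorubicin samples were compared directly in each line. In A549 no chain was called with edgeR, where 0% of all genes were called, and none with DESeq2, and 1 chain, LAMA3, had an unadjusted p below 0.05. In SK-MEL-147 no chain was called with edgeR, where 0.0594% of all genes were called (0.0432% higher and 0.0162% lower), 1 was called with DESeq2, and 4 chains, with ITGA6, LAMA1 and LAMA4 among them, had an unadjusted p below 0.05, with a lowest adjusted p of 0.176. The 95% interval of the palbociclib against doxorubicin log2 difference in SK-MEL-147 was -0.41 to 0.32 for ITGA3, -0.32 to 0.35 for ITGA5 and 0.66 to 2.79 for LAMA4, around 1.73. For ITGB8 it was -1.21 to -0.04, around -0.63. In A549 it was -0.13 to 0.95 for LAMB3, -0.77 to -0.12 for LAMA3 and -1.91 to 1.84 for ITGA11. These intervals are not adjusted for the number of genes. The drugs share no dose, so these are differences between the 2 treatments as given.

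INK128 was then set against each of the withdrawn drugs. In SK-MEL-147, 4 chains were higher and 15 lower with INK128 than with doxorubicin (48.7% of all genes called, 24.8% higher and 24% lower, median of the chains -0.81), and 6 were higher and 16 lower than with palbociclib (52.6% called, 26.8% higher and 25.8% lower, median -1.11). ITGB5 was lower with INK128, at -1.78 ± 0.29 (adjusted p = 0.000103) against doxorubicin and -2.07 ± 0.29 (adjusted p = 2.52e-05) against palbociclib, as was ITGA5, at -1.57 ± 0.18 (adjusted p = 3.77e-06) and -1.58 ± 0.18 (adjusted p = 3.09e-06). ITGB3, at -1.74 ± 0.47 (adjusted p = 0.00634) and -1.44 ± 0.47 (adjusted p = 0.0172), and ITGA4, at -1.44 ± 0.25 (adjusted p = 0.000167) and -1.56 ± 0.25 (adjusted p = 7.46e-05), were also lower, with the ITGB3 call against palbociclib lost without palbociclib replicate 2 or INK128 replicate 4. ITGA10 was higher with INK128, at 2.17 ± 0.26 (adjusted p = 6.06e-06) and 1.70 ± 0.25 (adjusted p = 4.44e-05). In A549, 5 chains were higher and 6 lower than with doxorubicin (40.9% called, 21.2% higher and 19.7% lower, median -0.09), and 6 were higher and 6 lower than with palbociclib (42.5% called, 22% higher and 20.5% lower, median 0.02). LAMA3 was higher with INK128, at 0.80 ± 0.17 (adjusted p = 0.00288) and 1.24 ± 0.17 (adjusted p = 0.000184), and LAMB3 lower, at -1.19 ± 0.28 (adjusted p = 0.00593) and -1.60 ± 0.28 (adjusted p = 0.00102). ITGA1, at -1.81 ± 0.23 (adjusted p = 0.000161) and -1.76 ± 0.23 (adjusted p = 0.000158), and ITGA11, at -2.92 ± 1.04 (adjusted p = 0.0423) and -2.88 ± 1.04 (adjusted p = 0.0432), were lower, and each ITGA11 call was lost in 6 of 14 settings. With the A549 libraries numbered 1 left out, 22 chains (55.1% of all genes) were called against doxorubicin and 19 (57.1%) against palbociclib.

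Untreated SK-MEL-147 and untreated A549 differed in most chains. In the fit over all 8 groups, 9 of 35 tested chains were higher in SK-MEL-147 and 20 lower, where 33.3% of all genes were higher and 33.4% lower (66.7% called), and the median of the chains was -1.42, against 0.03. ITGB4, at -10.18 ± 0.39 (adjusted p = 6.2e-17), LAMA5, at -9.32 ± 0.25 (adjusted p = 2.57e-19), and LAMA3, at -8.00 ± 0.32 (adjusted p = 1.1e-16), were lower in SK-MEL-147. ITGA6 was higher there, at 0.70 ± 0.22 (adjusted p = 0.0071), and so was LAMB3, at 2.43 ± 0.32 (adjusted p = 3.69e-07), with 123, 128, 126 and 107 CPM in untreated SK-MEL-147, against 17.8, 22.5 and 21.1 in untreated A549. ITGA4, at 5.73 ± 0.53 (adjusted p = 8.91e-10), ITGB8, at 5.38 ± 0.41 (adjusted p = 3.03e-11), and ITGA5, at 1.74 ± 0.17 (adjusted p = 2.56e-09), were higher in SK-MEL-147. ITGA11 and ITGAL had no counts in untreated SK-MEL-147. With a floor of 3 counts over the group, ITGA11 was at least 75.2-fold lower than in A549, and ITGAL had 0.0630 to 1.10 CPM in untreated A549. CPM was scaled within each line, which offsets levels between the lines by 0.206 on the log2 scale against the scaling of the fit.

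Per length, ITGB1 led the integrin chains in every group. In SK-MEL-147 it averaged 439 CPM per kb with doxorubicin, 529 with palbociclib and 228 with INK128, against 196 in untreated cells. ITGA3 led the alpha chains in each, at 254, 246 and 111, against 55.6 in untreated cells. Second among the alpha chains came ITGA5 with doxorubicin and palbociclib, at 68.3 and 68.9, and ITGA6 with INK128 and in untreated cells, at 39.6 and 39.0. LAMB2 was the highest laminin chain with each drug, at 47.5, 51.7 and 43.8, whereas LAMB3 led in untreated SK-MEL-147, at 25.9. In A549 the order changed less, with ITGB1 at 441, 420.2 and 482, against 359 in untreated cells, and LAMB1 first among the laminin chains in all 4 groups, at 43.9, 42.1 and 57.3, against 39.8 in untreated cells. In untreated A549, ITGB5 and ITGA3 followed ITGB1, at 63.8 and 51.8 CPM per kb. Of the 38 chains, 17, 15 and 17 averaged under 1 CPM in SK-MEL-147 with doxorubicin, palbociclib and INK128, against 20 in untreated cells. In A549 these counts were 10, 10 and 8, against 12 in untreated cells.

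**Figure D4:**
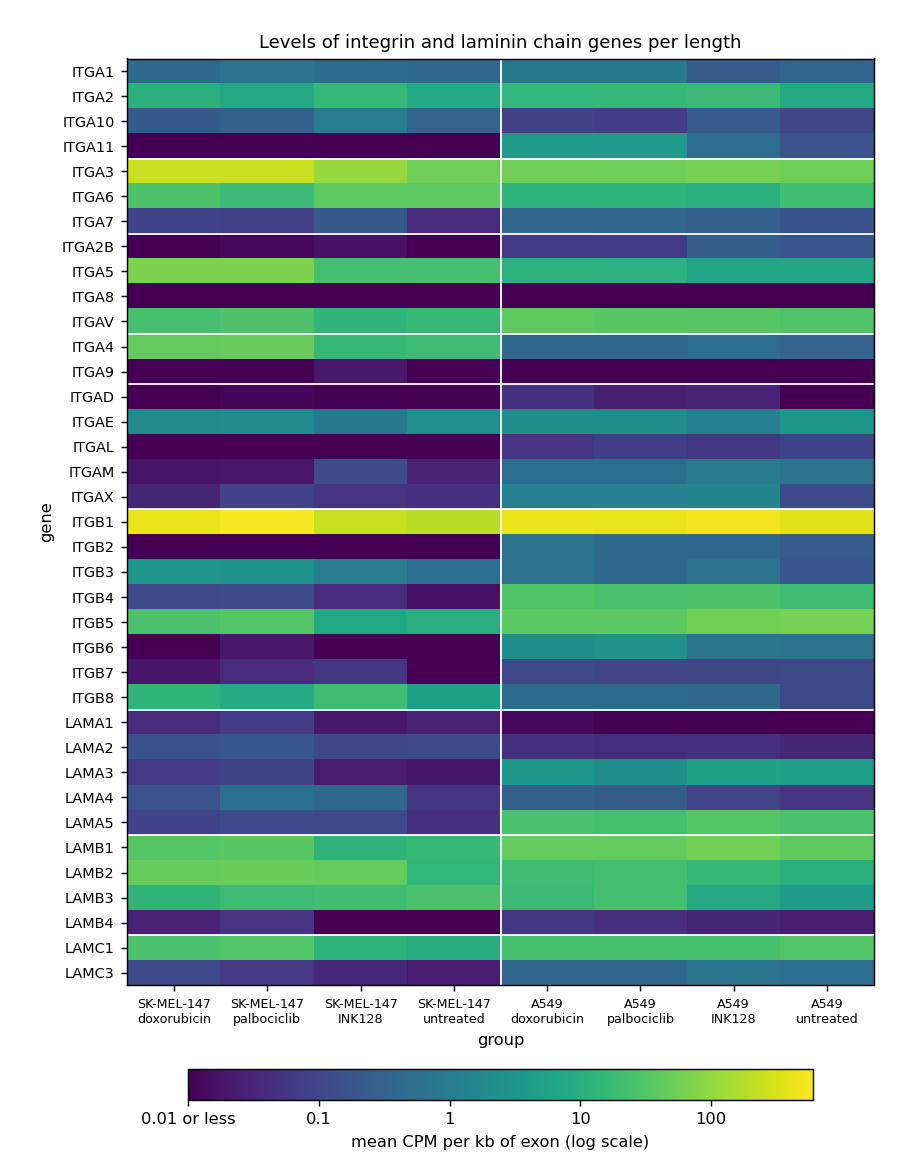
Mean CPM per kb of exon as colour on a log scale for integrin and laminin chains (rows) in each group (columns), drugs before untreated cells in each line. ITGB1 is the highest integrin chain in all 8 groups, and LAMB3 is the highest laminin chain in untreated SK-MEL-147.

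Whether the drug responses differed between the lines was tested as an interaction in the 8-group fit, as the SK-MEL-147 response minus the A549 response. For doxorubicin, the single drug given at the same dose in both lines, 9 chains had a higher response in SK-MEL-147 and 3 a lower one, where 8.49% of all genes were higher and 11.3% lower (19.8% called). For palbociclib 8 were higher and 3 lower, where 8.37% were higher and 10.8% lower (19.2% called), and with scaling by library size alone the split was 9 and 1. For INK128 4 were higher and 2 lower, where 6.51% were higher and 5.42% lower (11.9% called). The median over all genes was -0.10 for both doxorubicin and palbociclib and became 0.06 and 0.09 with library size scaling, shifts of 0.16 and 0.19, against which each value below is to be read. Palbociclib and INK128 were given at different doses in the 2 lines, so line and dose cannot be told apart.

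The doxorubicin response of ITGA3 was 2.00 ± 0.28 (adjusted p = 1.34e-05) higher in SK-MEL-147 on the log2 scale, and the palbociclib response 2.01 ± 0.28 (adjusted p = 1.4e-05). LAMA3 gave 2.02 ± 0.42 (adjusted p = 0.00109) and 3.10 ± 0.41 (adjusted p = 8.67e-06), and LAMB3, in the opposite direction, -3.12 ± 0.43 (adjusted p = 1.27e-05) and -3.02 ± 0.43 (adjusted p = 2.01e-05). ITGB4 differed by 1.82 ± 0.56 (adjusted p = 0.0216) and 2.34 ± 0.55 (adjusted p = 0.00364), and ITGB5 by 1.95 ± 0.44 (adjusted p = 0.00227) and 2.26 ± 0.44 (adjusted p = 0.000726). Differences in the same direction were called for ITGB1, at 0.75 and 1.08, LAMC1, at 1.75 and 1.98, LAMB1, at 0.79 and 0.92, and LAMA5, at 0.92 and 1.46. ITGAX had a lower doxorubicin response in SK-MEL-147, at -4.11 ± 1.14 (adjusted p = 0.0114), which was -2.58 and not called (adjusted p = 0.178) without SK-MEL-147 untreated replicate 1. For INK128, LAMB1 differed by -0.86 ± 0.20 (adjusted p = 0.00478), LAMA5 by 0.98 ± 0.29 (adjusted p = 0.0287) and ITGA6 by 1.05 ± 0.31 (adjusted p = 0.0235). The LAMA5 and ITGA6 calls were lost in 7 and 4 of 21 settings, and that of ITGAX, at -3.44 ± 1.09 (adjusted p = 0.0398), in 12. The doxorubicin calls of ITGB1 and LAMA5 were lost in 2 and 3 of 21.

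**Figure D5:**
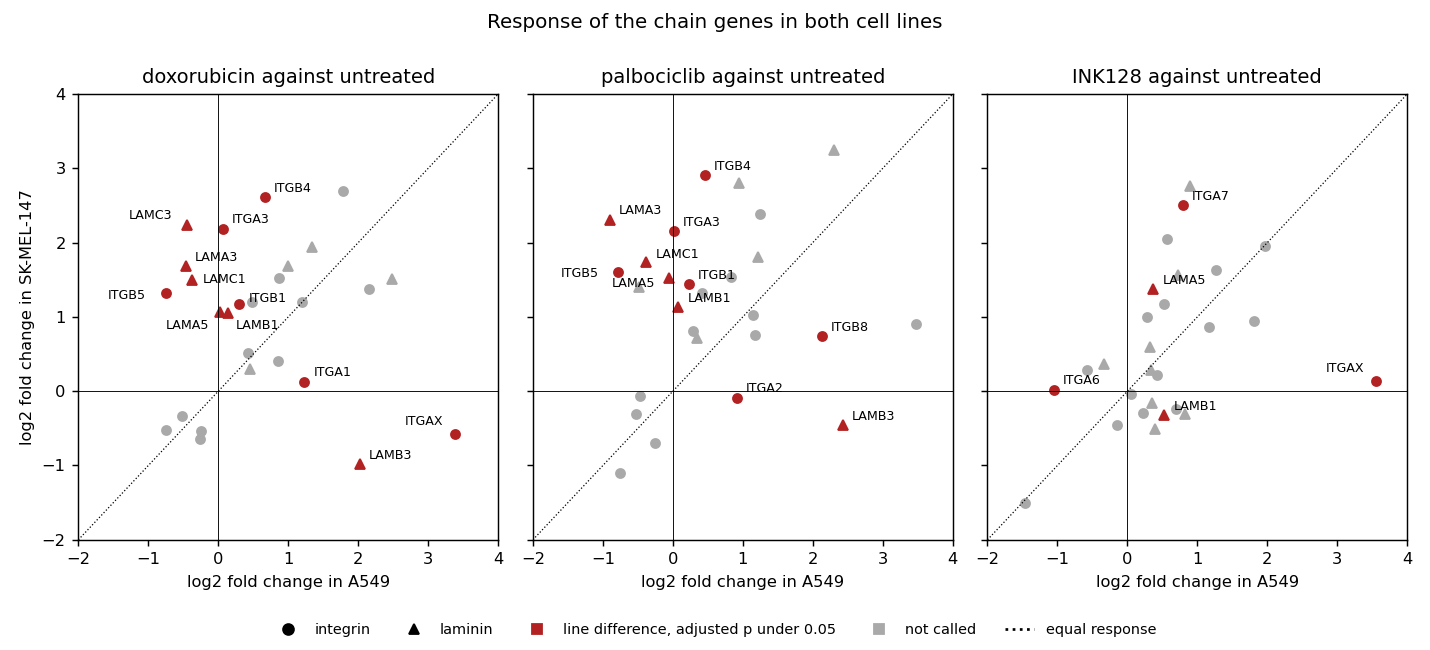
Log2 fold change against untreated cells in SK-MEL-147 (vertical) and in A549 (horizontal) for chains tested in both lines, a panel per drug; circles are integrins, triangles laminins, red points have a called difference between the lines and the dotted line marks equal responses. With doxorubicin, ITGA3 and LAMA3 lie above the diagonal and LAMB3 and ITGAX below it.

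The other genes of the matrix and adhesion pathway were counted on lists. These counts stand beside the shares of all genes in the same comparisons, which were 30.9% higher and 28.9% lower with doxorubicin, 29.7% and 28.7% with palbociclib and 29.8% and 28.9% with INK128 in SK-MEL-147, and 22.4% and 20.9%, 22.2% and 21.1%, and 20.5% and 19.7% in A549. Of the basement membrane partners, the proteins that laminin is laid down with, 10 of 12 tested rose and 1 fell in SK-MEL-147 with doxorubicin, 10 rose and 0 fell with palbociclib, and 6 rose and 1 fell with INK128. HSPG2, the proteoglycan perlecan, averaged 686 CPM with doxorubicin, 501 with palbociclib and 456 with INK128, against 41.8 in untreated cells, at changes of 4.04 ± 0.49, 3.58 ± 0.48 and 3.45 ± 0.48 (adjusted p = 2.4e-06, 7.99e-06 and 1.62e-05). COL4A1, a network collagen of the basement membrane, changed by 2.95 ± 0.33 with doxorubicin and 3.23 ± 0.33 with palbociclib (adjusted p = 8.19e-07 and 4.23e-07). In A549 8 of 15 rose and 1 fell with doxorubicin, 7 and 1 with palbociclib, and 5 and 1 with INK128, led by SPARC, a matrix protein that binds collagen, at 4.38 ± 0.66, 3.92 ± 0.65 and 2.14 ± 0.61 (adjusted p = 0.000314, 0.00056 and 0.0167). FBLN1, which binds laminin, fell in A549 with doxorubicin, at -1.74 ± 0.21 (adjusted p = 6.66e-05), and in SK-MEL-147, at -1.25 ± 0.22 (adjusted p = 0.000113). The medians of this list with doxorubicin were 1.98 in SK-MEL-147 and 0.83 in A549, beside 0.02 and 0.00 for all genes.

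Integrin ligands outside the laminins rose for 9 of 16 tested genes and fell for 1 in SK-MEL-147 with doxorubicin, for 11 and 1 with palbociclib, and for 6 and 5 with INK128. In A549 11 of 20 rose and 0 fell with doxorubicin, 10 and 0 with palbociclib, and 4 and 1 with INK128. FN1, fibronectin, the ligand of ITGA5, averaged 334 CPM with doxorubicin and 573 with palbociclib, against 42.3 in untreated SK-MEL-147, and with the same 2 drugs 3614 and 2919, against 313 in untreated A549. Its changes were 2.98 ± 0.41 and 3.76 ± 0.42 in SK-MEL-147 and 3.53 ± 0.64 and 3.22 ± 0.63 in A549 (adjusted p = 9.17e-06, 1.23e-06, 0.00106 and 0.00174). EDIL3, an RGD protein, rose with every drug in SK-MEL-147, at 4.59 ± 0.51, 4.46 ± 0.50 and 2.62 ± 0.46 (adjusted p = 7.98e-07, 1.22e-06 and 0.000165). TNC, tenascin C, fell there with doxorubicin, at -1.38 ± 0.22, and palbociclib, at -0.83 ± 0.21 (adjusted p = 3.59e-05 and 0.00315). Genes of latent TGF-beta, which integrins with ITGB6 or ITGB8 bind, rose for 8 of 10 in SK-MEL-147 with doxorubicin and with palbociclib, and rose for 6 and fell for 2 with INK128. In A549 8 of 11 rose with doxorubicin, 5 rose and 1 fell with palbociclib, and 5 rose with INK128. TGFB2, a TGF-beta ligand, rose with doxorubicin in SK-MEL-147, at 2.41 ± 0.32, and fell with INK128, at -1.59 ± 0.33 (adjusted p = 7.05e-06 and 0.000559). With doxorubicin the medians of the integrin ligands were 0.98 in SK-MEL-147 and 1.75 in A549, and those of the latent TGF-beta genes 1.91 and 1.10, beside 0.02 and 0.00 for all genes.

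Genes inside the cell that link integrins to actin were called in both directions. Of the focal adhesion list, 11 of 29 rose and 5 fell in SK-MEL-147 with doxorubicin, 13 and 4 with palbociclib, and 5 and 9 with INK128, with a median of 0.20 for doxorubicin against 0.02 for all genes. In A549 8 of 31 rose and 2 fell with doxorubicin, 7 and 4 with palbociclib, and 4 and 5 with INK128, where 22.4%, 22.2% and 20.5% of all genes rose. FERMT1, an epithelial kindlin that activates integrins, fell with each drug in SK-MEL-147, to 13.3 CPM with doxorubicin, 16.4 with palbociclib and 17.2 with INK128, against 34.5 in untreated cells (adjusted p = 8.18e-08, 1.37e-06 and 4.51e-06). TNS1, a tensin, rose with each drug in A549, at 2.59 ± 0.50, 2.54 ± 0.50 and 1.44 ± 0.48 (adjusted p = 0.00155, 0.00173 and 0.0337). Of 11 hemidesmosome genes and laminin receptors outside the integrins, 5 rose and 2 fell in SK-MEL-147 with doxorubicin, 6 and 2 with palbociclib, and 7 and 2 with INK128, and in A549 the counts were 5 and 1, 3 and 0, and 2 and 1. With doxorubicin this list had a median of 0.45 in SK-MEL-147 and 0.47 in A549, where the focal adhesion list had -0.02. COL17A1, the hemidesmosome collagen, fell in SK-MEL-147 at -3.70 ± 0.46, -2.24 ± 0.42 and -2.86 ± 0.43 (adjusted p = 3.26e-06, 0.000251 and 3.93e-05) and rose in A549 with doxorubicin, at 1.91 ± 0.44 (adjusted p = 0.00429).

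Markers of other cell types moved with these changes in places. The summed level of 8 fibroblast markers in SK-MEL-147 ranged from 63.6 to 135 CPM with doxorubicin, 94.96 to 172 with palbociclib and 7.95 to 24.9 with INK128, against 17 to 24.8 in untreated cells, while THY1 and DCN were at or near 0. Most of it was LUM, a matrix proteoglycan, which averaged 78.7 CPM with doxorubicin, 103 with palbociclib and 13.7 with INK128, against 19.2 untreated, and COL1A1, a fibrillar collagen, at 23.4, 29.9 and 0.593 CPM, against 1.04 untreated. PDGFRB, a growth factor receptor, averaged 0.826, 2.32 and 0.409 CPM, against 0.324 untreated. In A549 it ranged from 28.6 to 42.0 with doxorubicin, 26.3 to 34.6 with palbociclib and 9.35 to 10.9 with INK128, against 8.78 to 23.7 in untreated cells. THY1, a fibroblast surface protein, averaged 17.6 CPM there with doxorubicin, 13.7 with palbociclib and 3.71 with INK128, against 5.3 in untreated cells. The 4 platelet markers summed to 5.01 to 13.4 CPM in A549 with doxorubicin, 6.24 to 13.6 with palbociclib and 0.234 to 0.356 with INK128, against 0.221 to 0.569 in untreated cells. PPBP, a platelet chemokine, averaged 7.5 CPM with doxorubicin, 8.63 with palbociclib and 0.0331 with INK128, against 0.108 in untreated cells. Endothelial markers summed to at most 1.93 CPM in any sample. Their part in the changes of the integrin and laminin chains was not tested.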

How the data were processed

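Polyadenylated RNA was sequenced with a stranded kit, per the labels' protocols, in 32 libraries of 8 groups. The deposited values are gene counts that the authors made with STAR 2.7.10a and featureCounts on GRCh38.p13, per the submitters' processing notes; annotation release and strand setting are not given in the sources used here. Positions and exon lengths came from GENCODE 29. A549 libraries titled 2 and 2-2 share a replicate number and were summed, giving n = 3; libraries 2-2 and 3, though closer to each other, differed beyond counting noise and were kept apart. Counts were filtered with filterByExpr, scaled by TMM and tested with edgeR 4.0.16 (quasi-likelihood F test, R 4.3.3), per line over 4 groups, and over all 8 groups for the lines and the interactions, with Benjamini-Hochberg adjustment over all genes and a threshold of 0.05. The test was also run on simulated counts with known changes, drawn independently for each sample. That run held no structure shared by same-numbered samples, so it cannot show how the test behaves with such structure. Members and lists were chosen with earlier results of these data known. Chains given with full tests were, per drug comparison, up to 6 called chains with the largest change and at least 5 CPM in the higher group (4 in other comparisons), plus 12 fixed chains, and the rest were added to account for the other chains. A chain that this rule names is not reported here. From each other list, up to 2 called genes per direction with at least 5 CPM were named. Alternatives were DESeq2 1.42.0, no count filter, other scaling, other handling of the replicate 2 libraries, each replicate left out, and replicate as a block. Replicate numbers come from the titles; same-numbered samples deviated together (every correlation above 0.1) in all 6 comparisons within A549, and in SK-MEL-147 for INK128 against untreated, palbociclib against doxorubicin and INK128 against doxorubicin.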

Additional observations from a re-analysis of the deposited data

Results flagged for a closer look

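In SK-MEL-147, 66 groups of 4 samples were examined for a sample far from the others, and 5 had one. For normally distributed values chance gives about 1 in 20. ITGB1 had a low INK128 sample at 1090 CPM. ITGB4 had a high INK128 sample at 0.539 CPM, and ITGB6 a high doxorubicin sample at 0.0705 CPM. ITGB6 was too low to test in this line, and at so few counts the chance rate does not apply to its flag. LAMB1 had a low palbociclib sample at 249 CPM. LAMB2 had a high untreated sample at 172 CPM.

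Drug responses that differed between the lines in a test of the interaction, as SK-MEL-147 minus A549, were singled out among the named chains. For doxorubicin these were ITGA3 at 2.00, ITGAX at -4.11, LAMA3 at 2.02 and LAMB3 at -3.12 on the log2 scale. For palbociclib they were ITGB4 at 2.34, ITGB5 at 2.26, LAMA3 at 3.10 and LAMB3 at -3.02. For INK128 they were ITGA6 at 1.05, ITGAX at -3.44, LAMA5 at 0.98 and LAMB1 at -0.86. Palbociclib and INK128 doses differed between the lines.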

How the results depend on the processing

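Of 123 values that the naming rule chose, 90 were called, and 75 of these kept their call and direction in every alternative run, while 15 lost the call in at least 1; no called value reversed. Of the 33 not called, 19 were called in at least 1. Of 233 counts of called chains, 221 stayed within 1.5 times the reported count. With all A549 libraries numbered 1 left out, an alternative chosen after seeing the data, 24 chains were called with palbociclib (reported 14), 23 with INK128 (12), 22 for INK128 against doxorubicin (11) and 19 for INK128 against palbociclib (12), as the calls over all genes also increased to between 53.7% and 57.1%; the cause was not tested. Palbociclib against doxorubicin in SK-MEL-147 gave 1 call with DESeq2 and 1 without a count filter. Leaving out 1 replicate at a time gave, in A549, 13 to 16 calls with doxorubicin, 13 to 17 with palbociclib, 6 to 13 with INK128 (6 without untreated replicate 2, 7 without INK128 replicate 3), 0 to 0 for palbociclib against doxorubicin, 7 to 14 for INK128 against doxorubicin (7 without doxorubicin replicate 2) and 8 to 13 for INK128 against palbociclib (8 without INK128 replicate 2). In SK-MEL-147 these ranges were 16 to 18, 18 to 22, 8 to 11, 0 to 0, 15 to 20 and 21 to 22. Untreated lines gave 27 to 29, and the line differences 10 to 12 for doxorubicin, 9 to 12 for palbociclib and 2 to 7 for INK128 (2 without A549 untreated replicate 3, 3 without A549 INK128 replicate 2 or SK-MEL-147 INK128 replicate 4). With replicate as a block, A549 gave 21, 18, 16, 0, 15 and 16 calls in the same order of comparisons (56.3, 56.3, 54.9, 0, 54.6 and 56.2% of all genes), and SK-MEL-147 21, 24, 12, 0, 20 and 22 (66.3, 65, 65.3, 1.84, 57 and 60%). In 3 SK-MEL-147 comparisons the lowest correlation between same-numbered samples was below 0.1. Correlations ran from 0.0226 to 0.26 for doxorubicin against untreated and from 0.0729 to 0.326 for palbociclib against untreated. For INK128 against palbociclib they ran from 0.0322 to 0.449. In these comparisons the block ended the calls of ITGB8 with palbociclib, at 0.73 (adjusted p = 0.0627), and LAMA4 with doxorubicin, at 1.50 (adjusted p = 0.0636). Among the calls it added there was LAMB3 with palbociclib, at -0.53 (adjusted p = 0.0455). Over all comparisons within a line, the block ended 2 calls of the chains and added 21 in A549 and 11 in SK-MEL-147. At the lowest depth, chains near 1 CPM rest on few reads, and several called changes below that level in SK-MEL-147 do so.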
